A study of Mus musculus with 90 samples.

Results

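The genes described here are Bok, Nectin3, Prkcd, Pcp4, Amigo2, Spock1, Nrip3 and Islr2, 8 of the 19962 genes measured, taken as the rows of the deposited table that bear these names. They were chosen by their higher signal in the hippocampal field CA3 than in the field CA1 of these same samples, so their CA3 level over CA1, and with it their level over cortex, is given as a description and not tested. Signal was measured with the GeoMx Digital Spatial Profiler and the mouse Whole Transcriptome Atlas: gene probes hybridised to the section are cut loose by light within a chosen area of interest (AOI) and sequenced. The samples were 90 AOIs in 5 µm sections of formalin-fixed, paraffin-embedded brain from 6 mice under chronic social stress (CSS) and from 4 controls (ctrl). They lay in 5 subregions: CA3 (18 AOIs), CA1 (18), motor cortex (MC, 19), somatosensory cortex (SS, 19) and choroid plexus (CP, 16). Of the AOIs, 46 were labelled p16 high and 44 p16 low, p16 being a cell cycle inhibitor whose level marks senescence. The sources used here give neither the basis of the p16 label nor the strain, age or sex of the mice.

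CA3 pyramidal neurons receive mossy fibre input from dentate granule cells, excite each other through recurrent collaterals, and send Schaffer collaterals to CA1. The small field CA2 lies between CA3 and CA1 and has its own pyramidal neurons. Several of the genes have other known sites of expression: Pcp4 and Amigo2 mark CA2, Pcp4 is also found in deep cortical layers, and Prkcd is a gene of thalamic neurons. At the cell surface, Nectin3 encodes an immunoglobulin-like adhesion protein found at mossy fibre synapses in CA3. Amigo2 and Islr2 encode transmembrane proteins with leucine-rich repeats, Amigo2 in adhesion and Islr2 (also called Linx) in axon guidance. Spock1 encodes testican-1, a secreted proteoglycan of the extracellular matrix. Inside the cell, Prkcd encodes protein kinase C delta, Pcp4 a small protein that modulates calmodulin, and Bok a BCL-2 family protein. Nrip3 encodes nuclear receptor interacting protein 3, of which little is known. In RefSeq (GRCm38.p6) the genes include Bok at chr1:93685575-93695770, Nectin3 at chr16:46387665-46498535, Prkcd at chr14:30595353-30626414, Pcp4 at chr16:96467606-96525793. The remaining genes are Amigo2 at chr15:97244074-97247287, Spock1 at chr13:57421195-57908332, Nrip3 at chr7:109758056-109781545 and Islr2 at chr9:58196297-58204319.

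Promoters are printed for Pcp4 with Amigo2 and for Bok with Prkcd, since the signals of each pair were correlated between CA3 AOIs, as described further on. Each runs from 250 bases before to 50 after a RefSeq start (GRCm38.p6, 7 of the 8 genes matched, none for Nrip3, and the upstream of the 2 listed starts for Prkcd), read 5′ to 3′ on the gene's strand. The start used for Prkcd lay inside the gene span given above, which ends at 30626414. Capitals mark matches, on either strand, to the E-box (CANNTG), the GC box (GGGCGG), the TATA box (TATAAA), the CRE core (TGACG) and the MEF2 site. Pcp4 lies at chr16:96467356-96467655 (plus strand), Amigo2 at chr15:97247238-97247537 (minus), Bok at chr1:93685325-93685624 (plus) and Prkcd at chr14:30626159-30626458 (minus).
Pcp4: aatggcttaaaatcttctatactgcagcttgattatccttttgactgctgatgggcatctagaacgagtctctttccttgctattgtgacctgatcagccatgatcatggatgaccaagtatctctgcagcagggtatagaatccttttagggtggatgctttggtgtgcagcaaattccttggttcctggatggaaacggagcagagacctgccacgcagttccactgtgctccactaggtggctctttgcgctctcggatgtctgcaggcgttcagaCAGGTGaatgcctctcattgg
Amigo2: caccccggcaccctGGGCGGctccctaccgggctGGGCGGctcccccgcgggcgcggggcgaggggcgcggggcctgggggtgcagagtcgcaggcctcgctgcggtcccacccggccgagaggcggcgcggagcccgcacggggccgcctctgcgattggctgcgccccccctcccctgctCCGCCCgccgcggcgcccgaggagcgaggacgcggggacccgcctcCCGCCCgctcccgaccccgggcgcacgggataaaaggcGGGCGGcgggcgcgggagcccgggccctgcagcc
Bok: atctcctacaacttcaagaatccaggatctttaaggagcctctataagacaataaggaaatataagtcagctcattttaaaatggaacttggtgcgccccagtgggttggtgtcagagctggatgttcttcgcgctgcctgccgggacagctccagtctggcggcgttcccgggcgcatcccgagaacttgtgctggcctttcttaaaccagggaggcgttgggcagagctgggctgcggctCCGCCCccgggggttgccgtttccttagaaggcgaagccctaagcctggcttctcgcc
Prkcd: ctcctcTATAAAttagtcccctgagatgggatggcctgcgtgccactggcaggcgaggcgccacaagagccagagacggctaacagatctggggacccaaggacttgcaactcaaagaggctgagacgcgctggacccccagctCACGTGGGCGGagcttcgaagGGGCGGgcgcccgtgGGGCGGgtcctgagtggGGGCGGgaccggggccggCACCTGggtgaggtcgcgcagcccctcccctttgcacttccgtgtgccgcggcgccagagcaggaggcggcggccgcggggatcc
The Pcp4 window held 1 E-box and the Amigo2 window 5 GC boxes, so that this pair shared no searched motif. The Bok window held 1 GC box, and the Prkcd window 4 GC boxes, 2 E-boxes, 1 of which overlaps a GC box, and 1 TATA box. Of all 32851 promoters in the table, 72.3% held an E-box, 35.7% a GC box, 13.6% a TATA box, 20.8% a CRE core and 0.557% a MEF2 site. A match describes the letters of the window and is not shown to be a binding site.

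Values are signals that had been scaled to a median of 22.0667 over genes in every AOI. Probe counts recovered from the signal totalled 184469 to 2098984 per AOI. The negative control probe, which measures background, stood at 10.785 to 18.143. Differences are in log2(signal + 1), which understates the change of weak genes, and the replicate was the mouse. An AOI holds many cells, so fewer cells of a type and less RNA per cell cannot be told apart. The CA3 label was set beside lists of other genes, chosen with earlier results of these data known. Of 8 CA1 pyramidal genes, 8 were lower in CA3 than in CA1 with adjusted p under 0.05, with a median log2 difference of -2.98 (0.00 over all genes). Of 15 other CA3 pyramidal genes, 11 were called higher in CA3 than in CA1 and 1 lower, with a median of 1.16. Over all genes 5.04% were called higher and 12.7% lower. Of 10 dentate granule genes, 4 were at or below the negative probe in CA3, 2 in CA1, 2 in MC, 4 in SS and 1 in CP. In CA3 against CA1, 2 of these 10 were called higher and 1 lower. CA2 genes were present in the CA3 AOIs at levels that differed widely, as given below. The 2 CA3 AOIs of control mouse 1175 held most of the lowest values: its p16 low AOI had the lowest CA3 signal of Nectin3 (59.0), Pcp4 (45.5), Amigo2 (10.4), Spock1 (154), Nrip3 (91.9) and Bok (137), and its p16 high AOI the lowest of Islr2 (84.5). Other mice came close for Nectin3 (59.6 in 1170), Bok (139 in 1152) and Islr2 (88.3 in 1182). The p16 low AOI of mouse 1175 also had the highest negative probe (17.2) and total count (1421580) of the CA3 AOIs.

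All 8 genes averaged higher in CA3 than in CA1, and 7 of them had their highest mean in CA3. Bok stood at 183 ± 27.2 in CA3, against 38.2 ± 5.19 in CA1 (mean signal ± SD over 10 mice). Its 18 CA3 AOIs ran from 137 to 245, above all 72 other AOIs, which reached 58.8. Nectin3 likewise separated CA3 completely, at 85.5 ± 17.8 in CA3 and 25.0 ± 6.00 in CA1, with a lowest CA3 AOI of 59.0 and no other AOI above 44.1. Nrip3 stood at 240.4 ± 68.7 in CA3 and 24.7 ± 7.49 in CA1, and its lowest CA3 AOI (91.9) was above the highest of any other subregion (80.7). Prkcd averaged 116 ± 34.3 in CA3 and 12.8 ± 5.05 in CA1, where 9 of 18 AOIs were at or below the negative probe. Its lowest CA3 AOI (39.2, the p16 high AOI of CSS mouse 1163) was below 3 of 16 CP AOIs and above all others.

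Spock1, Islr2, Pcp4 and Amigo2 overlapped with other subregions. Spock1 stood at 339 ± 72.8 in CA3 and 34.9 ± 7.81 in CA1, and Islr2 at 143 ± 44.0 in CA3 and 21.3 ± 4.79 in CA1. For both, every CA3 AOI was above every CA1 AOI, but 9 and 1 of the 38 cortex AOIs were above the lowest CA3 AOI. Pcp4 stood at 317 ± 151 in CA3 and 29.0 ± 9.0 in CA1, and Amigo2 at 53.9 ± 28.2 in CA3 and 8.18 ± 3.26 in CA1. Relative to their means, these 2 had the widest spread between mice in CA3. They also overlapped with CA1: 2 of 18 CA1 AOIs for Pcp4 and 5 for Amigo2 were above the lowest CA3 AOI. Of the 18 CA3 AOIs, 17 and 14 were above every CA1 AOI. Amigo2 was at or below the negative probe in 16 of 18 CA1 AOIs, where it rested on 1 to 15 counts, and in 4 of 18 CA3 AOIs.

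As a description of what chose the genes, the log2 difference of CA3 over CA1 was 3.25 for Nrip3 (SE 0.13), 3.23 for Spock1 (0.10), 3.10 for Prkcd (0.18), 2.95 for Pcp4 (0.17), 2.66 for Islr2 (0.14), 2.25 for Bok (0.09), 2.23 for Amigo2 (0.22) and 1.77 for Nectin3 (0.11). Each was above 0 in 10 of 10 mice. By this difference they ranked between 3 and 31 of 19962 genes. All 8 passed an adjusted p of 0.05, against 17.7% of all genes (5.04% higher and 12.7% lower), and nothing is read from this count because the genes were chosen on it. Without mouse 1175 the differences ran from 1.82 to 3.35.

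**Figure D1:**
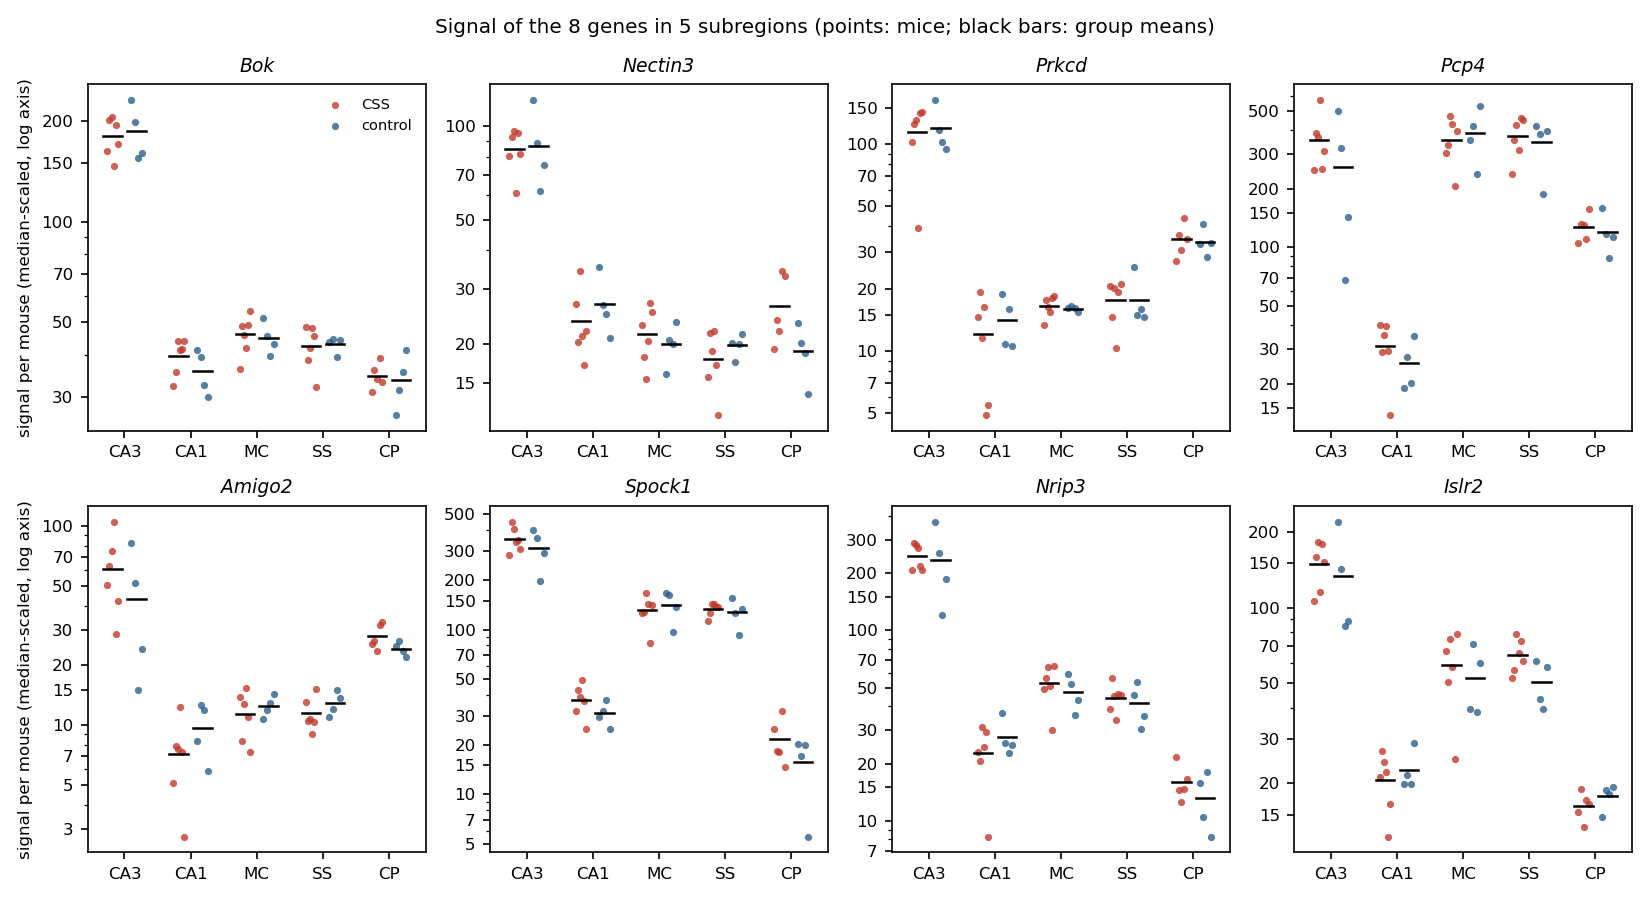
Signal of each gene (log axis) in CA3, CA1, MC, SS and CP, with 1 point per mouse, CSS mice left of control mice, and black bars at group means. Bok, Nectin3 and Nrip3 stand apart in CA3, whereas the Pcp4 values of CA3 overlap those of MC and SS.

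In the cortex the 8 genes lay at very different levels relative to CA3 and CA1. Cortex is here the mean of MC and SS in each mouse. Pcp4 averaged 317 ± 151 in CA3 against 366 ± 78.4 in cortex (10 mice), and the log2 difference of CA3 over cortex was -0.69 (SE 0.14), above 0 in 1 of 10 mice. That difference averages the log2 values of p16 high and low AOIs, which were very unequal in CA3. The mouse above 0 was 1163, whose only CA3 AOI was p16 high, and mouse 1182 had only a p16 low one. By mean signal, CA3 was above cortex in mice 1151 (502 against 389), 1157 (386 against 345) and 1163 (569 against 372), and below it in the others. The cortex signal of Pcp4 was 12.4-fold that of CA1 on the log2(signal + 1) scale (log2 3.63, SE 0.12), the highest such difference of all 19962 genes. By mouse, Pcp4 ran from 68.4 to 569 in CA3, against 213 to 463 in cortex, so that CA3 mice lay both below and above the cortex range. Of the 18 CA3 AOIs, 5 were above every cortex AOI. Without mouse 1175 the difference of CA3 over cortex was -0.58.

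Spock1 and Islr2 were at an intermediate level in cortex. Spock1 averaged 339 ± 72.8 in CA3 against 133 ± 20.4 in cortex, and its cortex signal was 28.1% to 48.0% of that in CA3 of the same mouse (median 41.2%). Islr2 averaged 143 ± 44.0 in CA3 against 57.7 ± 10.7 in cortex, with cortex at 22.9% to 67.0% of CA3 (median 43.9%). Both were above CA1 in the cortex of 10 of 10 mice, by log2 1.91 (SE 0.10) for Spock1 and 1.38 (SE 0.10) for Islr2. Nrip3 averaged 240.4 ± 68.7 in CA3 against 46.9 ± 8.47 in cortex (median 20.2% of CA3), and cortex was above CA1 by 0.95 (SE 0.14).

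Nectin3, Prkcd and Amigo2 were low in cortex, whereas Bok was close to Nrip3 there. Bok averaged 183 ± 27.2 in CA3 against 44.1 ± 2.35 in cortex, with mice between 39.5 and 47.7 (Nrip3 46.9). The cortex signal of Bok was 2.74 times the negative probe, with 0 of 38 AOIs at or below it, and a median 24.8% of CA3. Nectin3 averaged 85.5 ± 17.8 in CA3 against 19.8 ± 1.72 in cortex, where 9 of 38 AOIs were at or below the negative probe. Prkcd averaged 116 ± 34.3 in CA3 against 17.0 ± 2.37 in cortex (20 of 38 AOIs at or below the negative probe). Amigo2 averaged 53.9 ± 28.2 in CA3 against 12 ± 1.49 in cortex (34 of 38). The cortex levels of Prkcd and Amigo2 were therefore not separated from background. The log2 differences of CA3 over cortex were 2.59 for Prkcd, 2.30 for Nrip3, 2.05 for Nectin3, 2.02 for Bok, 1.61 for Amigo2, 1.32 for Spock1 and 1.29 for Islr2 (SE 0.08 to 0.17), each above 0 in 10 of 10 mice.

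Between CA3 and cortex 33.8% of all genes were called (27.5% higher and 6.23% lower), and between cortex and CA1 48.3% (14.4% higher and 33.9% lower). Neither is read as support, since the CA3 and CA1 samples chose the genes. The all-gene split moved with scaling. Between CA3 and cortex, 5494 genes were called higher and 1244 lower, but 3371 higher and 9097 lower after scaling to the 75th percentile, which moved the median of all genes to -0.27. Under each scaling tried, 7 of the 8 genes stayed above 0 and Pcp4 below 0 in this comparison.

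Within the cortex AOIs, Pcp4, Islr2, Spock1 and Nrip3 were correlated with deep-layer genes, to a degree that differed between MC and SS. Over the 38 MC and SS AOIs, the correlation with the mean of 8 deep cortical layer genes was 0.71 for Pcp4 (Spearman 0.63), 0.63 for Islr2 (0.58), 0.59 for Spock1 (0.50) and 0.43 for Nrip3 (0.42). For Bok, Nectin3, Prkcd and Amigo2 it ran from -0.22 to 0.12. Within MC (19 AOIs) and SS (19 AOIs) it was 0.64 and 0.86 for Pcp4, 0.84 and 0.32 for Islr2, 0.64 and 0.55 for Spock1 and 0.65 and 0.32 for Nrip3. Without the 2 AOIs farthest from the median, the SS values were 0.76 for Pcp4, 0.24 for Spock1, 0.12 for Nrip3 and 0.08 for Islr2. The MC values were then 0.45 for Pcp4, 0.42 for Spock1, 0.57 for Nrip3 and 0.74 for Islr2. With 6 upper-layer genes, Pcp4 had a correlation of 0.14 and Islr2 one of -0.24. These AOIs share mice, 4 or fewer from each, and Pcp4 (0.77) and Spock1 (0.79) correlated as highly with the mean of 6 general excitatory genes. The part of the layers or neurons sampled in each AOI was not tested.

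The first comparison that used neither CA3 nor CA1 was MC against SS. The 8 genes had nearly equal means in both. Pcp4 averaged 369 ± 102 in MC and 363 ± 90.5 in SS, Spock1 135 ± 28.5 in MC and 130.4 ± 17.6 in SS, and Bok 45.6 ± 5.52 in MC and 42.7 ± 4.92 in SS (SD, 10 mice). No gene was called by limma (0%), with 1100 genes at an unadjusted p under 0.05 and 14 called by edgeR. Log2 differences of the 8 genes ran from -0.09 to 0.25, with 95% intervals within -0.36 and 0.44. The largest was Nrip3, at 50.8 ± 11.5 in MC and 43.1 ± 8.50 in SS, a difference of 0.25 (SE 0.09, adjusted p = 0.89) that was above 0 in 9 of 10 mice.

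CP against cortex split the genes. The 9 mice with CP AOIs had CP values that were higher than cortex for Prkcd and Amigo2, and lower for Spock1, Islr2, Nrip3, Pcp4 and Bok. Prkcd averaged 34.3 ± 5.56 in CP, against 17.0 ± 2.37 in cortex, with CP mice between 27.3 and 44.1 and cortex mice between 12.9 and 20.8. The groups did not overlap and the difference was 1.0 (SE 0.12, adjusted p = 5.10e-07). Amigo2 averaged 26.4 ± 3.75 in CP, against 12 ± 1.49 in cortex, a difference of 1.10 (SE 0.12, adjusted p = 1.86e-07). Both were thus clear of background in CP, with 0 of 16 CP AOIs at or below the negative probe.

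Of the genes lower in CP, Spock1 differed most, with 18.9 ± 7.15 in CP, against 133 ± 20.4 in cortex, a difference of -2.87 (SE 0.16, adjusted p = 5.05e-12). Islr2 stood at 16.9 ± 2.09 in CP against 57.7 ± 10.7 in cortex (-1.73, SE 0.12), and Nrip3 at 14.8 ± 3.99 in CP against 46.9 ± 8.47 in cortex (-1.65, SE 0.14), where 3 and 8 of the 16 CP AOIs were at or below the negative probe. Pcp4 stayed well above background, at 124 ± 23.8 in CP against 366 ± 78.4 in cortex (-1.55, SE 0.08). Bok was 34.2 ± 4.50 in CP and 44.1 ± 2.35 in cortex (-0.34, SE 0.09, adjusted p = 0.00399). Nectin3, at 23.2 ± 6.68 in CP and 19.8 ± 1.72 in cortex, did not pass (0.21, SE 0.14, adjusted p = 0.247). All 7 called genes had the same sign in 9 of 9 mice.

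The background of this comparison was high: 40.8% of all genes were called, 24.4% higher in CP and 16.4% lower, so a call here says little about these 8 genes. The 8 genes of the choroid plexus epithelium list were all called higher (median log2 5.22). Dividing by the negative probe moved the median of all genes by 0.22 and 75th percentile scaling by -0.22, with 7868 genes higher and 1859 lower under the first and 3695 higher and 7097 lower under the second, against 4874 higher and 3278 lower as scaled by the authors. Bok lost its call under the negative probe scaling (-0.08, adjusted p = 0.56), and Nectin3 gained one (0.47, adjusted p = 0.008).

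Across subregions, the order of levels was CA3, MC, SS, CA1, CP for Bok, Spock1 and Nrip3, and CA3, SS, MC, CA1, CP for Islr2. It was CA3, CP, SS, MC, CA1 for Prkcd and Amigo2, CA3, CA1, CP, MC, SS for Nectin3, and MC, SS, CA3, CP, CA1 for Pcp4. Neighbours whose mouse values did not overlap were CA3 and MC for Bok, Spock1 and Nrip3, CA3 and SS for Islr2, and CA3 and CA1 for Nectin3. They were also CP and SS for Prkcd and Amigo2, CP and CA1 for Pcp4, and SS and CA1 for Spock1. All other neighbours overlapped.

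The CA3 AOIs differed among themselves more in Pcp4 and Amigo2 than in the other genes. Pcp4 ran from 45.5 to 919 with a median of 218, a 20.2-fold span, and Amigo2 from 10.4 to 152 with a median of 28.9, a 14.7-fold span. Nrip3 spanned 5.72-fold, Prkcd 4.82-fold, Spock1 3.55-fold, Islr2 3.02-fold, Nectin3 2.31-fold and Bok 1.78-fold. Pcp4 and Amigo2 were high and low in the same AOIs of the 18, with a Pearson correlation of log2 values of 0.97 (Spearman 0.98, and 0.96 without the 2 AOIs farthest from the Pcp4 median). In CA1, MC, SS and CP the same correlation was -0.09, 0.09, -0.30 and 0.26.

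Among the genes and lists compared with Pcp4 in CA3 AOIs, most CA2 genes moved with it. No search over all genes was made. Pcp4 correlated at 0.98 with Necab2, a calcium-binding protein gene, 0.96 with Rgs14, a regulator of G protein signalling, 0.98 with Gsto1 and 0.95 with Ptpn5, a tyrosine phosphatase. With the mean of all 10 listed CA2 genes it correlated at 0.98 (Spearman 0.99). The exceptions, named after their values were seen, were Stac3 (-0.24) and Sostdc1 (0.16). Rgs14 ran from 27.9 to 488 and Necab2 from 29.0 to 479 over these AOIs. Correlation with the mean of 15 other CA3 genes was 0.14, and with the log2 total count of the AOI -0.34. Pcp4 also correlated with the list means of deep cortical (0.89) and CA1 genes (0.76). The points share mice, and the part of CA2 tissue in the CA3 AOIs was not tested.

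Nrip3 and Spock1 shared some of this pattern, and Bok, Nectin3 and Prkcd formed a second group. Pcp4 correlated at 0.84 with Nrip3 and 0.70 with Spock1, which correlated with each other at 0.91. Bok correlated at 0.84 with Nectin3 and 0.80 with Prkcd, and Nectin3 at 0.78 with Prkcd. Pcp4 correlated negatively with Prkcd (-0.49) and Bok (-0.36), and at -0.71 and -0.77 without the 2 AOIs farthest from the Pcp4 median, but at -0.05 with Nectin3. Spock1 correlated at 0.52 with Nectin3, 0.25 with Bok and 0.03 with Prkcd, and Nrip3 at 0.42, 0.13 and -0.13 with the same genes, so the sign was not the same for all pairs. Islr2 correlated at 0.84 with Nectin3 and 0.28 with Pcp4. The 4 AOIs with the highest Bok, between 235 and 245, had Pcp4 between 66.2 and 96.8, whereas the AOI with the highest Pcp4 (919, control mouse 1151, p16 high) also had high Bok (219).

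**Figure D2:**
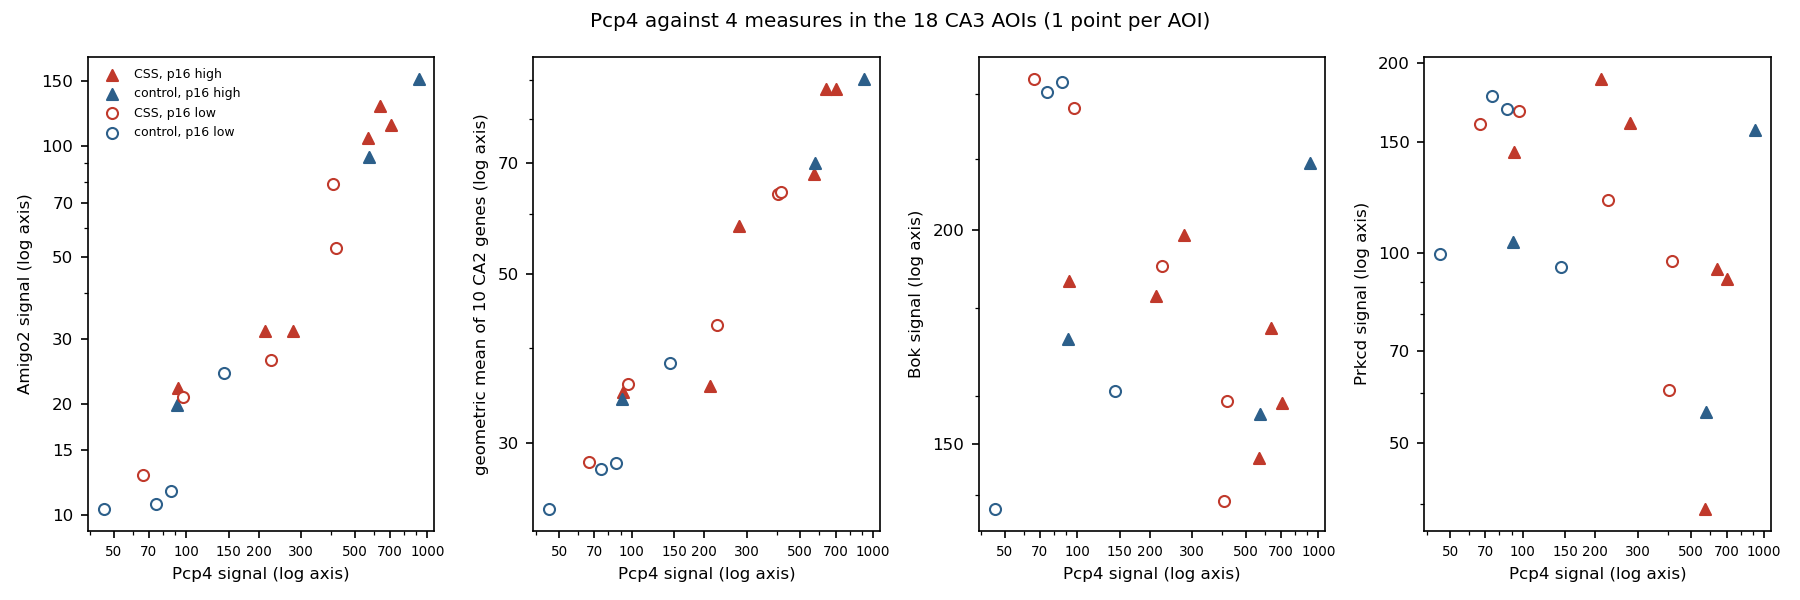
Pcp4 signal in the 18 CA3 AOIs (horizontal, log axis) against Amigo2, the geometric mean of the 10 listed CA2 genes, Bok and Prkcd (vertical, log axes). Filled triangles are p16 high and open circles p16 low AOIs. The first 2 panels rise together (correlations 0.97 and 0.98), while Bok and Prkcd tend to fall (-0.36 and -0.49).

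By p16 label in CA3, Pcp4 was higher in the p16 high AOI of 6 of the 8 mice that had both. In CSS mice 1157, 1162, 1169, 1152 and 1170 it stood at 705, 636, 277, 92.3 and 211 in the p16 high AOI, against 66.2, 96.8, 225, 405 and 417 in the p16 low AOI. In control mice 1151, 1168 and 1175 it stood at 919, 573 and 91.3 in the p16 high AOI, against 86.2, 74.7 and 45.5 in the p16 low AOI. In mice 1157, 1162, 1151 and 1168 the p16 high AOI was above the p16 low AOI by 2.70 or more on the log2 scale, and in mice 1152 and 1170 it was below it.

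Amigo2 followed mouse by mouse. In the same CSS mice it stood at 114, 129, 31.5, 22.1 and 31.5 in the p16 high AOI, against 12.8, 20.8, 26.2, 79.1 and 53.0 in the p16 low AOI. In the control mice it stood at 152, 93.4 and 19.8 in the p16 high AOI, against 11.6, 10.7 and 10.4 in the p16 low AOI. The high minus low differences of Pcp4 and Amigo2 had the same sign in 8 of 8 mice and correlated at 0.996. Those of Pcp4 correlated at 0.980 with Rgs14 and 0.987 with Necab2, and at -0.851 with Bok and -0.874 with Prkcd.

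None of this passed the test over all genes. In CA3, limma called 0 of 19962 genes between p16 high and low (0%), with 2654 at an unadjusted p under 0.05, and edgeR called 55. The mean log2 difference was 1.33 for Pcp4 (SE 0.40, 95% interval 0.50 to 2.15, adjusted p = 0.185) and 1.36 for Amigo2 (SE 0.39, 0.56 to 2.16, adjusted p = 0.184). Nrip3 was at 0.55 (SE 0.14) and Spock1 at 0.45 (SE 0.12), each above 0 in 7 of 8 mice with adjusted p = 0.184. Islr2 was at 0.23, Nectin3 at 0.14, Prkcd at -0.09 and Bok at -0.10, with adjusted p from 0.416 to 0.891.

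The calls depended on 1 mouse, on the scaling and on the tool. Without CSS mouse 1152, in which Pcp4 was lower in the p16 high AOI, 538 genes were called and 4 of the 8 were among them: Pcp4 (1.82, adjusted p = 0.0041), Amigo2 (1.81, 0.0045), Nrip3 (0.66, 0.0065) and Spock1 (0.55, 0.0094). The same 4 were called after dividing by the negative probe (318 genes called), and Amigo2 and Nrip3 by edgeR. Without mouse 1175 no member was called.

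CA2 genes had p16 differences of the same sign. Of the 10 listed, 10 had a mean difference above 0 in CA3 and 0 were called, with a median of 0.49 (0.04 over all genes). Necab2 was at 1.42 (SE 0.45, adjusted p = 0.195), Rgs14 at 1.33 (SE 0.42, 0.195) and Gsto1 at 0.89 (SE 0.25, 0.184). Their summed signal ran from 396 to 1687 with a median of 1201 in the 9 p16 high CA3 AOIs, against 273 to 1000.4 with a median of 459.7 in the 9 p16 low ones. No gene of the list was at 0 in either group. Of 8 CA1 genes 6 were above 0 and 0 called, with a median of 0.08. The CA1 list summed to 281 to 633 in p16 high AOIs, against 228 to 346 in p16 low ones, with Spink8 at 1.28 (SE 0.35) and Pou3f1 at 0.02 (SE 0.23). The part of these genes in the p16 differences was not tested. The 15 other CA3 genes had a median of 0.14, with 11 above 0 and 0 called. Other lists also differed by p16 label in CA3, with 0 called in each. Of 6 general excitatory genes 6 were above 0 (median 0.31), and of 8 deep cortical layer genes 6 (median 0.21), with summed signal medians of 601 in p16 high AOIs against 338 in p16 low ones. Of 8 inhibitory neuron genes 1 was above 0 (median -0.26), of 8 astrocyte genes 2 (-0.22), of 6 microglia genes 1 (-0.13) and of 7 oligodendrocyte genes 0 (-0.08). Of 10 thalamic genes 3 were above 0 (median -0.13). The part of these lists was not tested either.

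**Figure D3:**
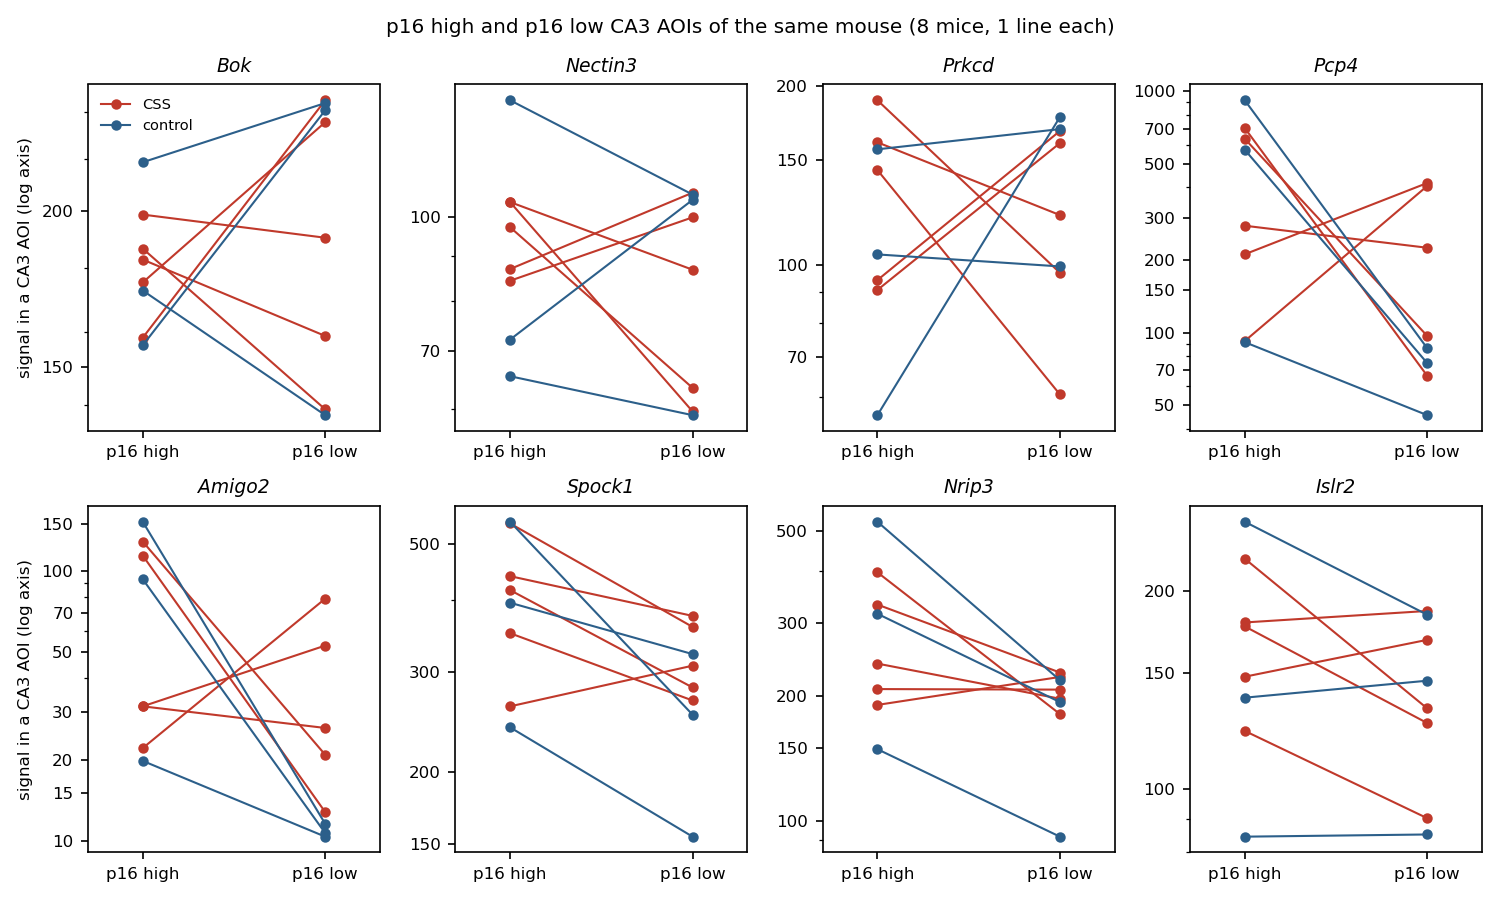
Signal of each gene in the p16 high and p16 low CA3 AOI of the same mouse (log axis, 1 line per mouse, 5 CSS and 3 control). Pcp4 and Amigo2 are higher in the p16 high AOI of 6 of 8 mice, while Bok and Prkcd are higher there in 4 of 8.

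In the other areas none of the 8 genes was called by p16 label. In CA1, 18 genes were called (0.0902%), none of the 8. Bok had the largest difference there, -0.45 (SE 0.17, adjusted p = 0.24), with a geometric mean of 30.4 in p16 high AOIs against 42.0 in p16 low ones, lower in the p16 high AOI of 7 of 8 mice. It passed with edgeR (-0.63, adjusted p = 0.0235) and without mouse 1182 (-0.63). In cortex 0% were called by limma (1093 at an unadjusted p under 0.05, 1 by edgeR), and the 8 differences ran from -0.08 to 0.13. In CP 0% were called (1046 and 6), and they ran from -0.21 to 0.27. Over hippocampus and cortex together 77 genes were called (0.386%), none of the 8, whose differences ran from -0.15 to 0.23. There edgeR called 151 genes, Amigo2 among them.

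Whether the p16 difference of CA3 differed from that of cortex in the same mice was tested directly. The difference of differences was 1.39 for Pcp4 (SE 0.41), 1.34 for Amigo2 (SE 0.43), 0.59 for Nrip3 (SE 0.17) and 0.41 for Spock1 (SE 0.14), each with adjusted p = 0.611. Limma called 0% of genes, with 1544 at an unadjusted p under 0.05, and edgeR was not run on this contrast. Without mouse 1152 Pcp4 passed (1.87, adjusted p = 0.0265).

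By stress group, no gene was called in CA3, CA1, cortex, CP or hippocampus with cortex (0% each by limma, with 574, 565, 551, 655 and 391 genes at an unadjusted p under 0.05, and 9, 4, 0, 2 and 0 by edgeR). In CA3, Pcp4 stood at 249, 340.3 and 569 (lowest, median, highest) in the 6 CSS mice, against 502, 324, 143 and 68.4 in the 4 control mice. The highest CSS value (569, mouse 1163) came from a p16 high AOI alone. The control value of 143 (mouse 1182) came from a p16 low AOI alone. These mouse values thus mix p16 label with stress group. The groups overlapped, and the difference, after centring within p16 label, was 0.54 (SE 0.28, 95% interval -0.02 to 1.10). Amigo2 stood at 28.9, 57.0 and 105 in CSS mice, against 82.0, 52.0, 24.3 and 15.1 in control mice (0.48, SE 0.24). Its values of 105 and 24.3 likewise came from mice 1163 and 1182. Both differences rested on control mouse 1175: without it they were -0.02 for Pcp4 and 0.05 for Amigo2.

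The other 6 genes had CSS differences between -0.09 and 0.18 in CA3, and between -0.24 and -0.04 without mouse 1175. Bok averaged 180.4 ± 23.6 in CSS and 186 ± 35.5 in control mice, and Prkcd 114 ± 39.3 in CSS and 119 ± 30.6 in control mice. In cortex Islr2 had the largest difference, with 61.9 ± 10.2 in 6 CSS mice against 51.4 ± 9.18 in 4 control mice (0.31, SE 0.15, adjusted p = 1.0), and the other 7 lay between -0.11 and 0.16. In CA1 the 8 differences ran from -0.53 to 0.26 and in CP from -0.10 to 0.54. With intervals reaching -1.33 and 1.14, differences of this size were not resolved with 6 and 4 mice. Of the 10 CA2 genes, 8 had a CSS difference above 0 in CA3, with a median of 0.30 and 0 called. Their summed signal ran from 348 to 1682 in 11 CSS AOIs against 273 to 1687 in 7 control AOIs. Of 7 oligodendrocyte genes 7 were above 0 in the same comparison (median 0.35, 0 called), with sums of 501 to 982 in CSS AOIs against 408 to 577 in control AOIs, and of 4 endothelial genes 4 (median 0.24, 0 called). Their part in the CSS differences was not tested.

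**Figure D4:**
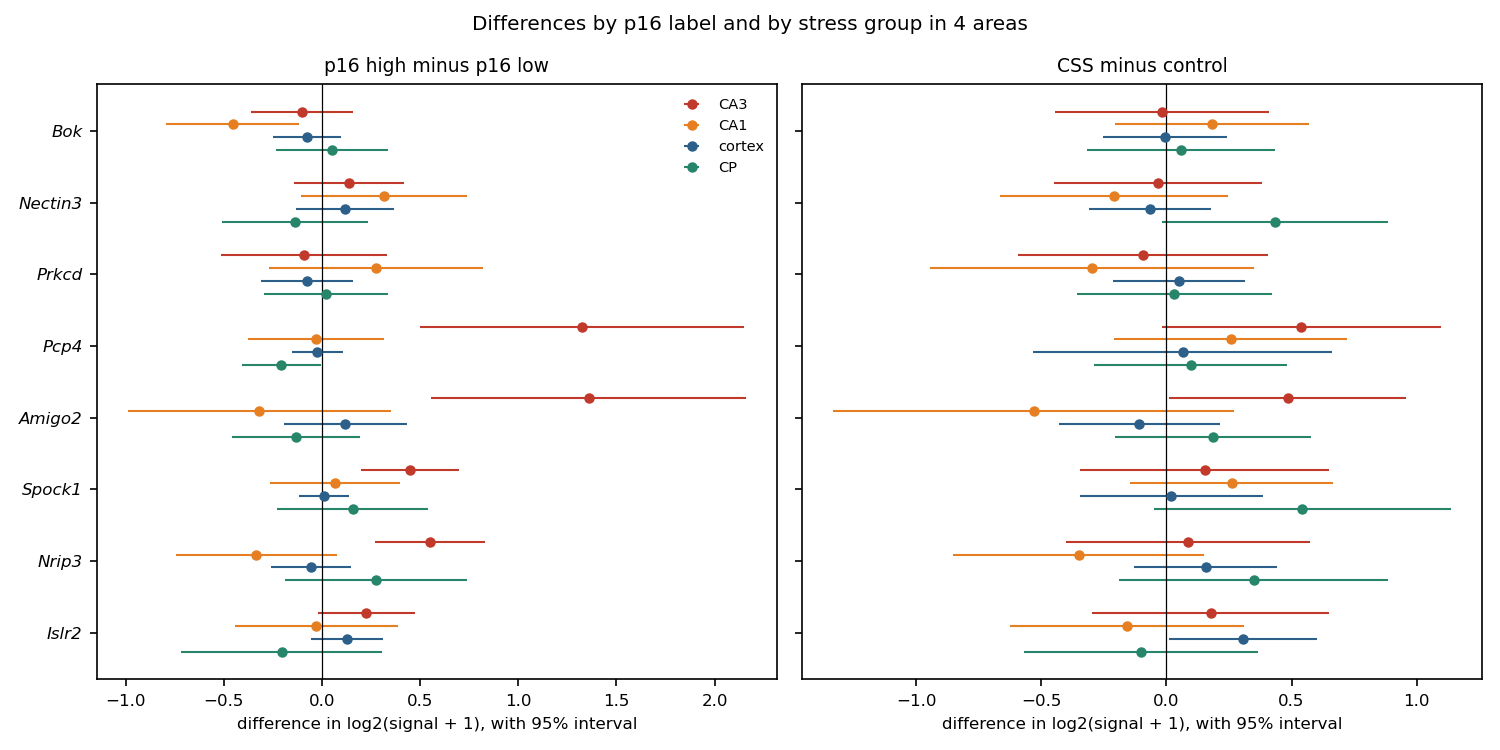
Mean difference in log2(signal + 1) with its 95% interval for each gene, p16 high minus low (left) and CSS minus control (right), in CA3, CA1, cortex and CP. Pcp4 (1.33) and Amigo2 (1.36) in CA3 lie furthest from 0 by p16 label, and no difference passed an adjusted p of 0.05.

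A further pair of interactions was fitted. Whether the p16 difference in CA3 differed between CSS and control mice gave -1.78 for Pcp4 (SE 0.75) and -1.83 for Amigo2 (SE 0.72), with mean p16 differences of 0.66 and 0.67 in 5 CSS mice, against 2.44 and 2.50 in 3 control mice. Adjusted p was 1.0 for both and 0% of genes were called (562 at an unadjusted p under 0.05). Whether the CSS difference of CA3 exceeded that of cortex gave 0.47 for Pcp4 (SE 0.18) and 0.59 for Amigo2 (SE 0.28), adjusted p = 0.974, with 0% called (827). Both tests share the CA3 AOIs of mice 1152 and 1175.

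Over all 90 AOIs, the genes outside the 8 whose signal most resembled the mean of their standardised log2 values were Grik4, a kainate receptor subunit gene (Pearson 0.908), Cpne4, a calcium-dependent membrane-binding protein gene (0.905), Wscd1 (0.852), Kctd4 (0.845) and Efr3b (0.841). Grik4 stood at 91.2 in CA3 against 15.4 in CA1, 23.0 in cortex and 13.3 in CP, and Cpne4 at 220.3 in CA3 against 18.1 in CA1, 23.0 in cortex and 15.8 in CP. Among the 8, Nrip3 (0.927) and Bok (0.904) were closest to this mean, and Pcp4 (0.526) and Amigo2 (0.622) farthest. The single most similar gene was Cpne4 for Bok (0.934), Gpc1 for Nectin3 (0.853), Iyd for Prkcd (0.832), Shisa4 for Pcp4 (0.842) and Necab2 for Amigo2 (0.691). It was Rph3a for Spock1 (0.939), and Spock1 itself for Nrip3 (0.903) and Islr2 (0.908). Iyd had 63.7 in CA3 and 17.3 in cortex, and Shisa4 97.0 in CA3 and 114 in cortex. These correlations are over AOIs that share mice and differ mostly by subregion.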

How the data were processed

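The deposited table held signal per gene and AOI on the build mm10, per the submitters' processing notes; its read-processing tools were not given in the sources used here. From the values, the authors had scaled each AOI's signal to 1 median: dividing by it gave whole counts for at least 99.985% of values per AOI (within 0.01). Of all values, 22.698% were at or below the negative probe. Names of 19846 genes (99.4%) matched RefSeq. AOIs of one mouse and condition were averaged as log2(signal + 1). Fits used limma 3.58.1 in R 4.3.3 over all 19962 genes, two-sided, with Benjamini-Hochberg adjustment and calls at 0.05. Comparisons within mice had the mouse as a block, and CSS was compared after centring within subregion and p16 label. The labels' mouse numbers give the pairing; over 41 pairs of p16 high and low AOIs, the median correlation of deviations was 0.08, with 16 over 0.1. Alternatives were quantile, 75th percentile and negative probe scaling, a pseudocount of 10, a filter on low signal, other block settings, leaving out each mouse, and edgeR 4.0.16 on recovered counts, the last chosen after seeing the data. The scripts were tested on simulated data. The 8 genes and the lists were chosen with earlier results of these data known. Besides them, the text names the genes most like them and, from the CA2 and CA1 lists, genes with the largest difference between CA3 and cortex. Stac3 and Sostdc1 of the CA2 list were named after their values were seen.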

Additional observations from a re-analysis of the deposited data

Results flagged for a closer look

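In 3 of 80 sets of 4 to 6 mice, 1 mouse lay far from the rest by Dixon's test, which chance alone gives in about 1 in 20 sets. All were among the 4 control mice in SS. Bok was 39.3 in mouse 1175, against 43.8 to 44.5 in the other control mice. Prkcd was 25.4 in mouse 1151, against 14.6 to 15.9 in the others. Pcp4 was 189 in mouse 1175, against 383 to 421 in the others, and this mouse also had the lowest Pcp4 in CA3 (68.4).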

How the results depend on the processing

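The number of the 8 genes called by p16 label in CA3 was 0 as reported, 4 after dividing by the negative probe, 2 with edgeR and 0 to 4 over fits that left out 1 mouse each, with 4 without mouse 1152. In CA1 it was 1 with edgeR and 0 to 1 over such fits (1 without mouse 1182), in hippocampus and cortex 1 with edgeR, and for the p16 difference of CA3 against cortex 0 to 1 (1 without mouse 1152). In CP against cortex it was 7, and 7 to 8 over such fits, as Nectin3 passed without mouse 1182. Amigo2 was removed by the filter on low signal, and was called there in the other 16 settings, the reported fit included. The CA3 over CA1 median of the 8 genes was 2.80, or 2.32 with a pseudocount of 10. Several values changed sign under some setting. For the p16 difference in CA3 these were Nectin3 (-0.071 with quantile normalization and -0.00049 with 75th percentile scaling), Islr2 (-0.018 with quantile normalization), Bok (0.012 with the negative probe) and Prkcd (0.021 with the negative probe, and -0.28 to 0.13 over fits that left out 1 mouse each, above 0 without mouse 1157, 1162 or 1168). By CSS in CA3, Pcp4 did so (-0.023 without mouse 1175, in a range up to 0.85), as did the other genes except Amigo2 (0.05 to 0.73). For cortex over CA1, these were Nectin3 (0.14 with 75th percentile scaling) and Bok (-0.067 with the negative probe). Without the mouse as a block, the replicate pairing being dropped, the numbers of the 8 genes called stayed at 7 in CP against cortex and at 0 in MC against SS, in the p16 comparisons and in the p16 difference of CA3 against cortex. Over all genes, p16 calls numbered 318 with the negative probe and 55 with edgeR in CA3 (0 as reported), and 637 and 103 in CA1 (18 as reported). In CA3 the negative probe was lower in the p16 high AOI of every mouse with both, so that scaling raised all genes there. Causes were not tested. Weak genes (Amigo2 and Prkcd in CA1 and cortex) are limited by background.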
